A study of Mus musculus with 63 samples.

Results

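Upp1, Rgcc, Serinc2 and Cd82 are 4 mouse genes with some of the largest excesses of mean level in regenerated innate lymphoid progenitors over their wild-type counterparts. They were selected on that difference, between the iR9 and the WT cells described next, from 23393 rows of a table of transcript abundance that carry a gene symbol. Of these rows, 7421 were at TPM (a transcript level corrected for gene length, with the same sum in every library) of 1 or more in 10% or more of the cells. All 4 passed this filter, Upp1, Rgcc and Serinc2 mainly through iR9 cells, since 6, 7 and 3 of 29 WT cells had them at that level, while all WT cells had Cd82. The 4 genes held places 1 (Upp1), 3 (Rgcc), 5 (Serinc2) and 11 (Cd82) in the order of the difference over those 7421. The differences between the groups are therefore the reason for the choice and are given as a description. The choice also required TPM of 1 or more in 50% or more of iR9 cells and a positive difference for each iR9 title suffix. Beyond that, it did not use whether the same cells hold the 4 genes or how their levels vary inside each group.

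Common helper innate lymphoid progenitors (CHILPs) are the bone marrow source of helper innate lymphoid cells, lymphocytes without rearranged antigen receptors that are grouped as ILC1, ILC2 and ILC3. The series profiled polyA RNA of single cells of this phenotype from C57BL/6 mice in 2 groups. The WT group was wild-type CHILPs, sorted as Lin- cells with CD45.2, CD127 and α4β7, with Sca1 intermediate or absent, and without CD135 or CD25. The iR9 group passed the same gate plus GFP. Its cells are regenerated from pluripotent stem cells, as the series title states, and were taken from the bone marrow of Rag2-/-Il2rg-/- recipients 4 weeks after transplantation, hosts whose own marrow cannot make lymphocytes of most kinds. The labels name no animal, age, recipient number, stem cell clone or induction step, and they give WT cells neither a recipient nor a transplantation. Each group was therefore 1 sample of many cells, and the groups were compared without a test.

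The WT group had 29 libraries, each taken as 1 cell. The 34 iR9 libraries carried title suffixes 1 (3 libraries), 2 (15) and 3 (16). For 15 cell numbers the suffix 2 and suffix 3 libraries had a Pearson r of 0.974 to 0.992 across genes, against at most 0.411 for 225 pairs of different numbers. The TPM of such a pair was averaged to give 1 cell, although the labels do not state that they are 1 cell, which left 19 iR9 cells. TPM keeps no read depth, so the precision of a low value is unknown. The number of genes detected at TPM 1 or more had a median of 2938 in WT cells (1189 to 5939) and of 1732 in iR9 cells (1514 to 3238). The helper progenitor markers Id2 and Il7r were at TPM of at least 10 in 29 and 25 of the 29 WT cells and in 19 and 16 of the 19 iR9 cells. Tcf7 was at that level in 22 WT and 5 iR9 cells. Zbtb16 reached it in 12 WT cells, and all 19 iR9 cells were at 0. The iR9 cell 12 of suffix 1 had 9 of 10 mast cell and basophil markers at TPM of at least 10, with a summed 245176 TPM, which goes against its label as a lymphoid progenitor. In the WT group, cells 21 and 26 had 4 of 12 myeloid markers each, with a summed 36906 and 129928 TPM, and 8 and 6 of 13 dendritic cell markers, with 173947 and 160146 TPM, which goes against their labels too. Cells 4 and 28 had 3 of 10 mast cell and basophil markers each, with a summed 66.1 and 67.3 TPM. WT cell 17 had 7 of 13 dendritic cell markers at TPM of at least 10, with a summed 83056 TPM, and 1 of 12 myeloid markers.

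The 4 genes act in different places in a cell. Upp1 encodes uridine phosphorylase, the enzyme that splits uridine into uracil and a ribose phosphate and so opens the way from nucleosides to sugar phosphates. Rgcc, regulator of cell cycle, encodes a small intracellular protein first described as a gene responding to complement, which binds the mitotic kinase Cdk1. Serinc2 belongs to the serine incorporators, membrane proteins with many transmembrane segments. Cd82 encodes a tetraspanin, a surface protein that gathers integrins and other receptors into membrane domains.

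A cell is said to hold a gene at TPM of at least 10. Levels are means of log2(TPM + 1) over cells, a scale on which the change of low genes is understated. The difference in these means, iR9 minus WT, was 4 or more for 16 of the 7421 genes, which is 0.216% of them and includes the 4 described here. Its median over all 7421 genes was -0.88, so that most genes had a lower mean level in iR9 cells.

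Upp1 (uridine phosphorylase 1) lies on chromosome 11 at chr11:9118103-9136170 of GRCm38, plus strand, with 9 annotated transcripts. In the 19 iR9 cells its TPM ran from 2.03 through a median of 563 to 4088. In the 29 WT cells it ran from 0 through a median of 0 to 1348. Levels in iR9 cells fell into separate ranges, since 8 cells lay at 7.32 TPM or below, 11 lay at 504 TPM or above, and none lay between. The 11 cells that held it were 57.9% of the iR9 cells (exact Clopper-Pearson 95% interval 33.5 to 79.7%). In the WT group 2 cells held it (6.90%, interval 0.846 to 22.8%), and all such intervals cover counting error only. Those were WT cell 14 at 1348 TPM and WT cell 7 at 12.8 TPM, while 21 WT cells were listed at 0. The groups overlapped, since WT cell 14 lay above 13 of the iR9 cells, and 6 iR9 cells exceeded every WT cell. The mean log2(TPM + 1) was 7.10 ± 4.23 (SD, 19 cells) in iR9 and 0.72 ± 2.03 (29 cells) in WT, a difference of 6.37.

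No iR9 cell was listed at 0 for Upp1, and the 8 cells that did not hold it had 2.03 to 7.32 TPM, whereas the 27 such WT cells had 0 to 1.94. The 27 WT cells therefore all lay below the lowest iR9 cell. A threshold of TPM 1 would count all 19 iR9 cells as positive, and whether these low values come from the cell itself was not tested.

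Sequence upstream of Upp1 is shown from RefSeq windows (GRCm38.p6), each the 250 bases before an annotated start with bases in annotated exons of the gene left out. The first stretch, chr11:9117758-9118007, plus strand, is printed because it holds an AP-1 motif (TGAGTCA, searched on both strands), in capitals. The second, chr11:9118285-9118506, plus strand, belongs to another annotated start and holds a RUNX motif (TGTGGT) and an ETS motif (CCGGAA, here as its reverse complement), both in capitals.
Upp1 window 1: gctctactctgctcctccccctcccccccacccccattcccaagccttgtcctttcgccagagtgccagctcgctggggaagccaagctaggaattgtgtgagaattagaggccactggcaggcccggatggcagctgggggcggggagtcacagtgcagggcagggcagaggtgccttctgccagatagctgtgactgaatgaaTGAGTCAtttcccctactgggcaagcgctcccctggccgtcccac
Upp1 window 3: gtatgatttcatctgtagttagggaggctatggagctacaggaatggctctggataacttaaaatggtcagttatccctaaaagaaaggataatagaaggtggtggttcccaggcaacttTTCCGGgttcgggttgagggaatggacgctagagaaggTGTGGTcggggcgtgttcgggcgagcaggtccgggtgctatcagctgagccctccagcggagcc
The third annotated Upp1 window overlaps window 1 and holds the same AP-1 match. AP-1 matches occurred in 4.46% of all 32851 windows in the table and ETS matches in 12.03%. A match shows only that these letters are present.

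The other genes of pyrimidine salvage and nucleoside handling did not share the pattern of Upp1. Of 23 others that passed the filter on low values, 2 had a difference of 1 or more and 11 had one of -1 or lower, with a median of -0.97. Over all 7421 genes, 5.15% had a difference of 1 or more and 44.5% one of -1 or lower. The largest absolute differences were those of Nme1 (-2.68), Uck1 (-2.44), Cmpk1 (-2.04) and Nt5c2 (-1.88), all of them enzymes that add or remove phosphates on nucleosides and nucleotides. Uck1, a kinase that phosphorylates uridine, was held by 10 WT and 0 iR9 cells. The related phosphorylase Upp2 was listed at 0 in every cell of both groups. Of 7 genes of de novo pyrimidine synthesis, 0 had a difference of 1 or more and 5 had one of -1 or lower, with a median of -1.07.

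**Figure D1:**
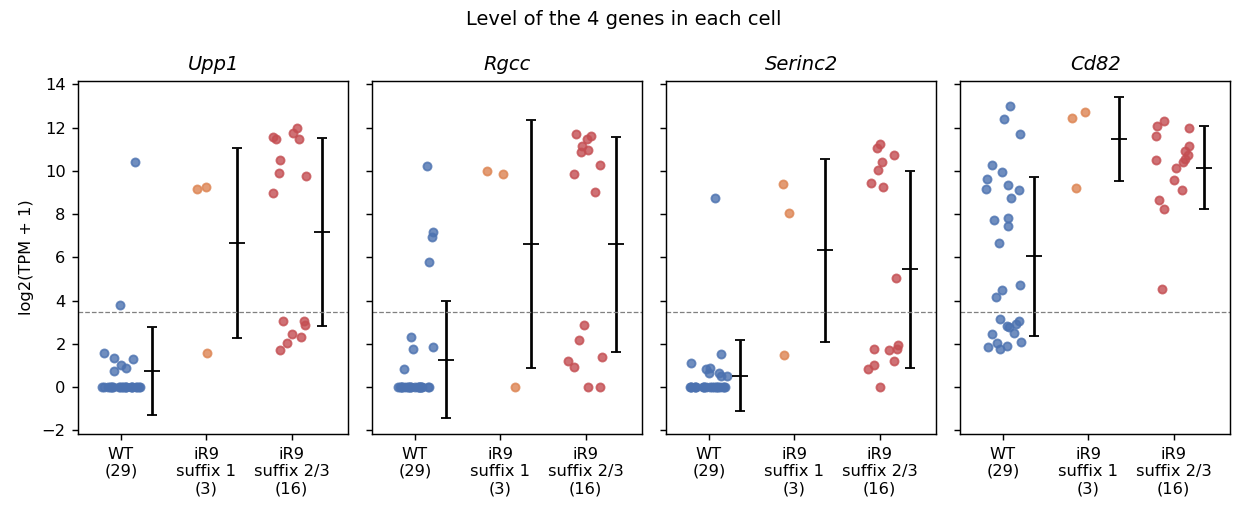
Level of each gene as log2(TPM + 1) on the vertical axis, 1 point per cell, for 29 WT cells, 3 iR9 cells of suffix 1 and 16 iR9 cells of suffix 2 or 3. Black marks give the mean and SD over cells and the dashed line is TPM 10. Upp1, Rgcc and Serinc2 split the iR9 cells into a high and a low set, while Cd82 lies above the line in all 19 iR9 cells and in 17 of 29 WT cells.

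Rgcc lies on chromosome 14 at chr14:79288756-79301645 of GRCm38, minus strand, with 1 annotated transcript. Its TPM in iR9 cells ran from 0 through a median of 920 to 3334. In WT cells it ran from 0 through a median of 0 to 1200. As for Upp1, 11 iR9 cells (57.9%) held it, all at 523 TPM or above, and the other 8 lay at 6.39 or below, with 3 of them listed at 0. In the WT group 4 cells held it (13.8%, interval 3.89 to 31.7%), namely cell 17 at 1200 TPM, cell 29 at 144, cell 9 at 120 and cell 5 at 54.6. Holding cells also differed in level, with a median of 1845 TPM over the 11 iR9 cells and 132 over the 4 WT cells. Only WT cell 17 reached the range of the iR9 holders, and 7 iR9 cells lay above it. The mean log2(TPM + 1) was 6.60 ± 4.93 (SD, 19 cells) in iR9 and 1.27 ± 2.70 (29 cells) in WT, a difference of 5.33.

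The single RefSeq window of Rgcc, chr14:79301646-79301885, minus strand, is printed because it holds a RUNX motif in its other spelling (TGCGGT) next to a cAMP response element core (TGACG, here as its reverse complement), both in capitals.
Rgcc window 1: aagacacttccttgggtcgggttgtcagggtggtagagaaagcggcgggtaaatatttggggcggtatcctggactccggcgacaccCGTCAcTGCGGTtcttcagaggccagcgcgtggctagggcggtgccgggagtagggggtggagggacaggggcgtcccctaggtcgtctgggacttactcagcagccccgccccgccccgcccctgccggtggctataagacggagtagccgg
The core occurred in 17.8% of all windows.

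Rgcc has been placed as a target of the TGF-beta pathway. Over all 7421 genes, 5.15% had a difference of 1 or more, 44.5% had one of -1 or lower, and the median was -0.88. Among the partners of Rgcc and the genes of that pathway, 0 of 13 that passed the filter had a difference of 1 or more. In this list 4 had one of -1 or lower, and the median was -0.92, close to that of all genes. The largest absolute differences were those of the kinase Akt1 (-1.74), the mitotic cyclin Ccnb1 (-1.33) and 2 genes of the Smad family, the signal transducer Smad2 (-1.12) and the inhibitor Smad7 (-1.06). Cdk1, the kinase that Rgcc binds, did not pass the filter, and it was held by 4 WT cells and 0 iR9 cells. Ccnb1 was held by 4 WT and 0 iR9 cells as well. High Rgcc was thus seen in iR9 cells in which these mitotic genes were below TPM 1.

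Serinc2 lies on chromosome 4 at chr4:130253495-130279205 of GRCm38, minus strand, with 5 annotated transcripts. Its TPM in iR9 cells ran from 0 through a median of 31.7 to 2394. In WT cells it ran from 0 through a median of 0 to 433. The median iR9 cell was iR9 cell 15 at 31.7 TPM, the lowest of the 10 holders (52.6%, interval 28.9 to 75.6%), and the next cell below it had 2.80. In the WT group 1 cell held it, cell 14 at 433 TPM (3.45%, interval 0.0873 to 17.8%), and 20 of 29 were listed at 0. Of the iR9 cells, 8 lay above WT cell 14. The mean log2(TPM + 1) was 5.60 ± 4.40 (SD, 19 cells) in iR9 and 0.53 ± 1.64 (29 cells) in WT, a difference of 5.06.

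One of 3 windows upstream of Serinc2, chr4:130271435-130271684, minus strand, is printed for the RUNX motif (TGTGGT) that it holds, in capitals.
Serinc2 window 3: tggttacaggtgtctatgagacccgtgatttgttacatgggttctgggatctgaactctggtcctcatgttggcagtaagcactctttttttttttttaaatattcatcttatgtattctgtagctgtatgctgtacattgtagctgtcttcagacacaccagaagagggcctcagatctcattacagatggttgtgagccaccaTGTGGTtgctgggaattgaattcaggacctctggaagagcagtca
The other Serinc2 windows held no RUNX match, which says only that these letters are not in them.

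The other serine incorporators did not share this pattern. Serinc1 had a difference of -0.10 and was held by 13 WT and 6 iR9 cells. Serinc3, the most widely held of the family, had a difference of -1.76 and was held by 28 WT and 15 iR9 cells. Serinc4 and Serinc5 were listed at 0 in every cell. Over all 7421 genes, 5.15% had a difference of 1 or more and 44.5% one of -1 or lower. In the supply of serine and the synthesis of sphingolipids and phosphatidylserine, 2 of 19 genes had a difference of 1 or more. In this list 7 had one of -1 or lower, and the median was -0.70. The largest absolute differences were those of Slc1a5 (-3.69), a carrier of neutral amino acids, Phgdh (-3.53), the first enzyme of serine synthesis, Ugcg (-3.37), which makes glucosylceramide, and Ptdss1 (-1.85), a phosphatidylserine synthase. Slc1a5 was held by 17 WT cells and 1 iR9 cell, and Phgdh by 14 and 1.

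Cd82 lies on chromosome 2 at chr2:93419111-93463140 of GRCm38, minus strand, with 11 annotated transcripts. Unlike the other 3 genes it was listed above 0 in all 48 cells. Its TPM in iR9 cells ran from 22.1 through a median of 1471.5 to 6693. In WT cells it ran from 2.40 through a median of 25.004 to 8283. It was held by all 19 iR9 cells (100%, interval 82.4 to 100%) and by 17 of 29 WT cells (58.6%, interval 38.9 to 76.5%). The ranges overlapped at the top, since the highest single value was that of WT cell 17 and no iR9 cell exceeded it, and they separated at the bottom, since 14 WT cells lay below the lowest iR9 cell. That lowest cell, iR9 cell 8 at 22.1 TPM, stood apart from the other 18, which began at 301. The mean log2(TPM + 1) was 10.36 ± 1.93 (SD, 19 cells) in iR9 and 6.06 ± 3.68 (29 cells) in WT, a difference of 4.30. As a log2 ratio of mean TPM the difference was 1.50, since the highest cells weigh more in that mean. WT cells 17, 13 and 14 had 8283, 5460 and 3297 TPM, while the median of the WT holders was 556 TPM. WT cells that held Cd82 had a median of 3551 detected genes (TPM 1 or more), and those that did not had 2148.

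The printed window of Cd82, chr2:93462503-93462705, minus strand, is 1 of 4 and holds a RUNX motif (TGTGGT), in capitals.
Cd82 window 2: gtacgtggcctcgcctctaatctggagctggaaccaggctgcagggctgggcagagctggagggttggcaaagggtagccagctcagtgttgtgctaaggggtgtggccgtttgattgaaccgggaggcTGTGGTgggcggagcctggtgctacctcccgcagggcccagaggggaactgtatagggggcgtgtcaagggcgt
With either spelling (TGTGGT or TGCGGT) a RUNX motif was found in 1 of 3 Upp1 windows, 1 of 1 Rgcc window, 1 of 3 Serinc2 windows and 2 of 4 Cd82 windows, and in 18.6% of all 32851 windows. Runx1, the gene of a RUNX factor, had a difference of 3.91 and was held by 11 iR9 and 4 WT cells. Whether a RUNX factor acts on any of the 4 genes was not tested. A long noncoding RNA on the opposite strand overlaps Cd82, Gm10804, and it was listed at 0 in all 48 cells. No other gene had a transcript matching those of the 4 genes at 90% identity or more over at least 100 bases.

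Of all 7421 genes, 5.15% had a difference of 1 or more and 44.5% one of -1 or lower, shares to set beside the next 2 lists. Among the other tetraspanins, 2 of 13 that passed the filter had a difference of 1 or more. In this list 2 had one of -1 or lower, and the median was -0.50. The largest absolute differences were those of Cd37 (-1.61), Tspan32 (1.36), Tspan13 (1.13) and Tspan6 (-1.05), and Cd82 had the largest. Cd37 was held by 20 WT and 9 iR9 cells, and Tspan32 by 11 and 10. Of 9 measured partners of tetraspanins, 1 had a difference of 1 or more and 3 had one of -1 or lower, with a median of -0.40. The integrin subunits gave the largest, with Itga4 at -2.96, Itgal at -2.39, Itgav at 1.28 and Itgb1 at -1.21. Itga4, whose protein is part of the α4β7 of the sort gate, was held by 19 WT and 5 iR9 cells.

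**Figure D2:**
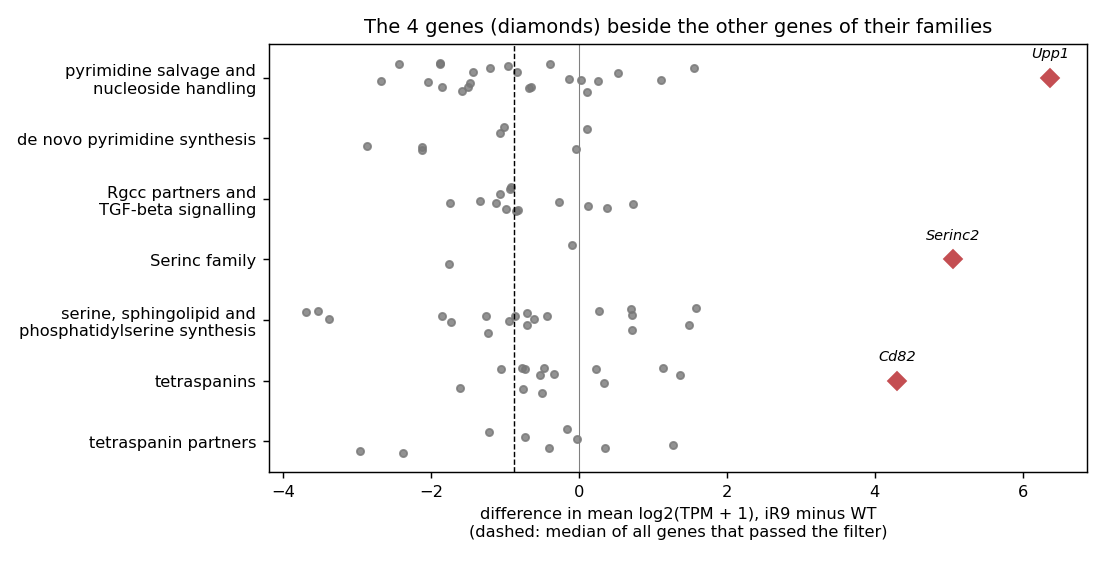
Difference in mean log2(TPM + 1), iR9 minus WT, for the genes of each pathway or family that passed the filter, with Upp1, Serinc2 and Cd82 as diamonds and the dashed line at the median of all 7421 genes (-0.88). The other genes of each row lie between -3.69 (Slc1a5) and 1.59 (Sptssa). Rgcc is not drawn, since its row lists only partners.

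The iR9 cells held different sets of the 4 genes. Of 19 cells, 6 (31.6%) held all 4, 5 held 3, 4 held 2, 4 held 1, and 0 held none. Of 29 WT cells, 0 held all 4, a count that allows a share of up to 10.3%, 1 held 3, 4 held 2, 13 held 1 and 11 held none. The median was 3 genes per iR9 cell and 1 per WT cell, a gap that follows from how the 4 genes were chosen. Since all iR9 cells held Cd82, their sets differed by the other 3 genes. Upp1 and Rgcc were held together by 8 iR9 cells, apart by 3 and 3, and by 5 not at all. Upp1 and Serinc2 were held together by 8, and Rgcc and Serinc2 by 7.

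Single cells show how freely the 3 genes came apart. The highest Upp1 value, 4088 TPM in iR9 cell 34, stood beside 6.39 TPM of Rgcc and 2.24 of Serinc2. The highest Rgcc value, 3334 TPM in iR9 cell 30, stood beside 862 TPM of Upp1 and Serinc2 listed at 0. The highest Serinc2 value, 2394 TPM in iR9 cell 32, stood beside 4.52 TPM of Upp1 and 1.34 of Rgcc. Across the 19 iR9 cells Pearson r of log2(TPM + 1) was 0.33 for Upp1 with Serinc2, 0.32 for Upp1 with Rgcc and 0.11 for Rgcc with Serinc2. Cd82 had an r of 0.43 with Rgcc, -0.41 with Upp1 and -0.17 with Serinc2. These describe 19 cells of 1 sample that share a fixed total of TPM.

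**Figure D3:**
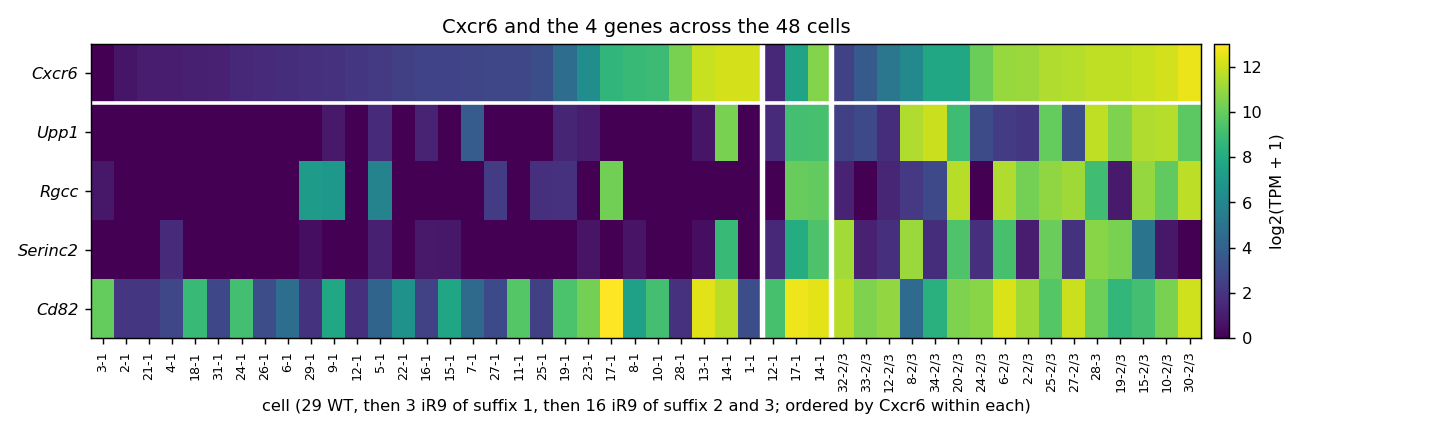
Level as log2(TPM + 1), by colour, of Cxcr6 and the 4 genes in each of the 48 cells, with WT cells on the left, then iR9 cells of suffix 1, then those of suffix 2 and 3, ordered by Cxcr6 inside each set. Bright cells of Upp1, Rgcc and Serinc2 are scattered over the iR9 columns in changing combinations, and in the WT columns they are few.

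The paired libraries show how far these high and low values repeat between the libraries of a cell number. In all 15 pairs of suffix 2 and 3 libraries, both or neither held the gene, for each of the 4 genes. Both held Upp1 in 8 pairs, Rgcc in 8, Serinc2 in 7 and Cd82 in 15. Among pairs that held it, the largest absolute log2 difference between the libraries was 0.11 for Upp1, 0.17 for Rgcc, 0.14 for Serinc2 and 0.73 for Cd82. Values under TPM 10 were less even. They were higher in the suffix 3 library in 6 of 7 pairs for Upp1 and in 5 of 7 for Rgcc, where the other 2 were both at 0. For Serinc2 this was so in 6 of 8. The low Rgcc values had a median of 0 TPM in suffix 2 and of 2.69 in suffix 3. The labels do not say whether a pair is 1 cell prepared more than once or 1 library sequenced again, so the pairs were not used as replicates.

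**Figure D4:**
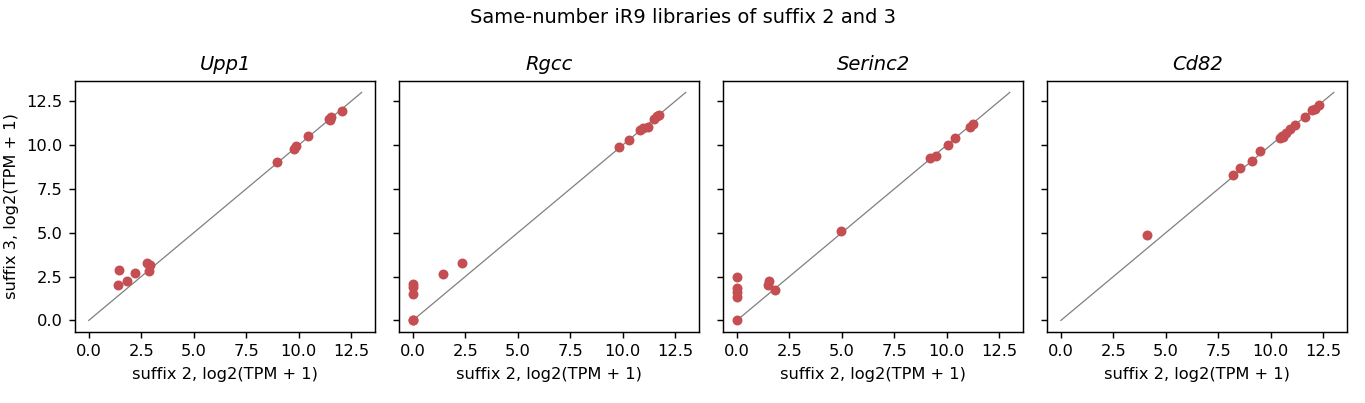
Level as log2(TPM + 1) of each gene in the suffix 2 library (horizontal) and the suffix 3 library (vertical) of the same iR9 cell number, for 15 pairs, with the line of equal values. Held values lie along the line, and most low values of Upp1, Rgcc and Serinc2 lie above it.

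The 3 iR9 cells of suffix 1 come from a separate set of titles. Upp1 had 2.03, 606 and 563 TPM in cells 12, 14 and 17, and Rgcc had 0, 938 and 1033. Serinc2 had 1.83, 670 and 267 TPM in the same order, and Cd82 had 594, 5629 and 6693. Cells 14 and 17 thus held all 4 genes, and cell 12, the cell with mast cell markers, held Cd82 alone. The difference from WT over these 3 cells was 5.94 for Upp1, 5.36 for Rgcc, 5.79 for Serinc2 and 5.40 for Cd82. Over the suffix 2 libraries alone it was 6.01, 4.85, 4.22 and 4.06 in the same order. A positive sign for each suffix was part of the choice of the 4 genes. The tetraspanins Cd9, Cd81 and Cd63, chosen after their values were seen, varied beside Cd82 in these 3 cells. Cd9 had 329, 305 and 626 TPM, Cd81 had 1410, 1041 and 1169, and Cd63 had 10204, 0 and 953. In the 16 other iR9 cells Cd9 was held by 1, Cd81 by 4 and Cd63 by 0. In the 29 WT cells they were held by 11, 14 and 7.

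Cxcr6, a chemokine receptor that marks helper progenitors on their way out of the marrow, allows the question whether WT cells that have it also hold the 4 genes. It was itself higher on average in iR9 cells, with a difference of 4.68 (6th of 7421), and was held by 17 of 19 iR9 and 9 of 29 WT cells. Of the 9 WT cells with Cxcr6 at TPM of at least 10, 1 held Upp1, 1 held Rgcc, 1 held Serinc2 and 7 held Cd82. Of the 20 other WT cells, 1 held Upp1, 3 held Rgcc, 0 held Serinc2 (which allows a share of up to 15%) and 10 held Cd82. Of 17 iR9 cells with Cxcr6, 11 held Upp1, 11 held Rgcc, 9 held Serinc2 and 17 held Cd82. At least 3 of the 4 genes were held by 11 of those 17 iR9 cells and by 1 of the 9 WT cells. Higher counts in iR9 than in WT cells follow from the choice of the 4 genes by their difference.

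The level of Cd82 differed by Cxcr6 inside the WT group, and the other 3 genes gave no difference that was independent of 1 cell. Cd82 had a median of 642 TPM in the 9 WT cells with Cxcr6 and of 12.2 in the 20 without. Its mean log2(TPM + 1) was 8.70 ± 3.93 (SD, 9 cells) against 4.87 ± 2.93 (20 cells), a difference of 3.84 and the 39th largest of 7421. A difference of 1 or more in this split was found for 27.7% of the 7421 genes, and their median was 0.35. Without WT cell 17 the Cd82 difference was 3.30, and without WT cell 28 it was 4.69. At a Cxcr6 threshold of TPM 1, which 27 of the 29 cells pass, it was 0.059. The WT cells with Cxcr6 had a median of 3145 detected genes against 2725.5, and among the 23 WT cells with at least 2000 detected genes the Cd82 difference was 4.21.

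The cells behind these numbers were uneven. Cd82 was highest in WT cells 17 (8283 TPM, with Cxcr6 at 376), 13 (5460, Cxcr6 3937) and 14 (3297, Cxcr6 4614). Among the 9 cells with Cxcr6 it was lowest in cells 28 (2.63, Cxcr6 1352) and 1 (7.82, Cxcr6 4661), so that a high Cxcr6 value stood beside both high and low Cd82. The Upp1 difference by Cxcr6 was 1.13 and was 0.016 without WT cell 14. The Serinc2 difference was 0.93 and was -0.013 without that cell. The Rgcc difference was 0.10 and was -1.01 without WT cell 17. That cell had 7 of 13 dendritic cell markers at TPM of at least 10, with a summed 83056 TPM. WT cell 14 had 5 of them, with a summed 4603 TPM, and the part of these markers in the values was not tested.

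WT cell 14 held more of the 4 genes than any other WT cell. It held Upp1 (1348 TPM), Serinc2 (433) and Cd82 (3297), with Rgcc listed at 0. It also had the highest WT value of Hsd11b1, an enzyme that regenerates active glucocorticoid (545 TPM, next WT cell 1.24), and of Klrb1b, a lectin-like receptor (2081 TPM, next 274). Both genes had large differences between iR9 and WT, at 4.25 (14th of 7421) and 4.52 (8th). It was also the highest WT cell for Ppap2a (608 TPM, next 2.76) and Cers4 (239 TPM, next 6.72), with differences between the groups of 1.51 and 1.48. For Gpr183, Cxcr6 and Ltb, also raised in iR9 cells, it was not the highest WT cell, with place 2 for Gpr183 and for Cxcr6 and place 6 for Ltb. It had 1 of 9 erythroid markers at TPM of at least 10, with a summed 404 TPM. Its Runx1 value was 0.322 TPM and its Gata3 value was 196.

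**Figure D5:**
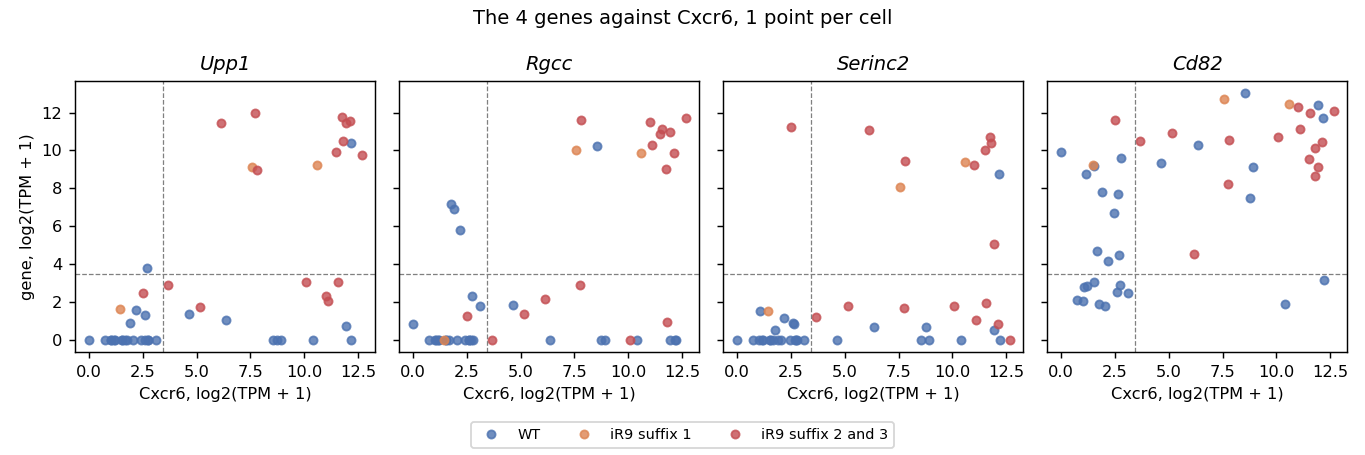
Level of each gene (vertical) against Cxcr6 (horizontal), both as log2(TPM + 1), 1 point per cell, for 29 WT, 3 suffix 1 and 16 suffix 2 or 3 iR9 cells, with dashed lines at TPM 10. On the right of the vertical line, 11 of 17 iR9 cells and 1 of 9 WT cells lie above the horizontal line for Upp1, and 17 of 17 and 7 of 9 do for Cd82. The genes were chosen for higher means in iR9 cells.

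Inside the iR9 group the 4 genes sorted differently with other markers. With Il23r, the interleukin 23 receptor of the ILC3 lineage, Rgcc was held by 6 of 6 cells that held Il23r and by 5 of the 13 others, a difference of 5.71 and the 6th largest of 7421. Upp1 was held by 5 of 6 and 6 of 13, and Serinc2 by 5 of 6 and 5 of 13. With Gata3, a factor needed by helper progenitors, the counts ran the other way, and Upp1 was held by 3 of 8 cells that held Gata3 and by 8 of 11 others, a difference of -3.30. Serinc2 was held by 3 of 8 and 7 of 11, and Rgcc by 4 of 8 and 7 of 11. The 8 cells with Gata3 include all 3 of suffix 1, and they had a median of 2024.5 detected genes against 1729. Without suffix 1, Upp1 was held by 1 of 5 cells with Gata3 and 8 of 11 others, a difference of -4.19, Serinc2 by 1 of 5 and 7 of 11, and Rgcc by 2 of 5 and 7 of 11. The cells with Il23r include 2 of suffix 1 and had a median of 2024.5 detected genes, against 1729 in the cells without Il23r. Without suffix 1, Rgcc was held by 4 of 4 and 5 of 12, a difference of 5.59. With Runx1, Upp1 was held by 6 of 11 and 5 of 8, Rgcc by 7 of 11 and 4 of 8, and Serinc2 by 7 of 11 and 3 of 8. The differences were -1.46, 0.98 and 2.44 in that order. The cells with Runx1 include 2 of suffix 1 and had a median of 1853 detected genes against 1623. Without suffix 1, Upp1 was held by 5 of 9 and 4 of 7, Rgcc by 6 of 9 and 3 of 7, and Serinc2 by 6 of 9 and 2 of 7. The differences were then -1.03, 1.98 and 3.59. Cd82 was held by every iR9 cell in each of these splits.

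In WT cells Cd82 was held by 16 of 24 cells that held Gata3 and by 1 of the 5 others, a difference of 3.87 against a median of 0.71 over all genes. Of these 5, cells 21 and 26 are those with 4 myeloid markers. The WT cells with Gata3 had a median of 3096 detected genes, and the 5 others had 2538. With Zbtb16, the factor PLZF of innate lymphoid progenitors, Rgcc was held by 0 of 12 cells that held it (a share of up to 25% is allowed) and by 4 of the 17 others. Cd82 was held by 10 of 12 and 7 of 17, with a median of 320 TPM against 7.33. The cells with Zbtb16 had a median of 3789.5 detected genes, and the others had 2538.

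The genes whose levels were most like each of the 4 were taken by Pearson r over the 19 iR9 cells. For Upp1 they were Etfb (0.74), Myeov2 (0.70) and Psmb6 (0.67), and for Rgcc Ndufc1 (0.73), Sdc4 (0.71) and Psmd8 (0.71). For Serinc2 they were Ndufb6 (0.77), Ube2n (0.73) and Timm17b (0.72). For Cd82 they were Ly6e (0.82), a small surface protein of lymphocytes, Spcs1 (0.71) and Gnas (0.71). These are the highest of 7421 values over 19 cells, and the 4 lists have no gene in common.

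Over the 29 WT cells the likest genes depended on single cells for Upp1 and Serinc2. Ppap2a (0.91), Serinc2 (0.90) and Hsd11b1 (0.90) came first for Upp1, and without WT cell 14 their r was 0.19, 0.15 and 0.041. Ppap2a (0.96), Hsd11b1 (0.96) and Cers4 (0.92) came first for Serinc2, and without that cell they had 0.27, 0.23 and 0.20. For Rgcc they were Tsc22d1 (0.78), Dos (0.75) and Syk (0.73), with 0.69, 0.56 and 0.71 without WT cell 17. For Cd82 they were Tpst2 (0.76), Rnf115 (0.75) and Batf3 (0.73), with 0.74, 0.72 and 0.69 without that cell.

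Close to the 4 genes in the order of the difference lay genes of other kinds. Among genes that reached TPM 1 in 50% or more of the iR9 cells, Hba-a2, an alpha globin chain, followed Upp1 at 6.18. Gpr183, a receptor for oxysterols, stood between Rgcc and Serinc2 at 5.18, and Cxcr6 followed Serinc2. Cd82 at 4.30 lay level with Sec11c (4.30), a subunit of the signal peptidase, just above it, and with Asb2 (4.30) and the actin-capping Capg (4.29) just below. Tmem176a (4.16), Pde6d (3.91) and Runx1 (3.91) came next after the 12 largest.

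Marker lists are set beside the shares over all 7421 genes, 5.15% with a difference of 1 or more and 44.5% with one of -1 or lower. Of 10 ILC3 and LTi markers, 5 had a difference of 1 or more and 0 had one of -1 or lower, with a median of 0.92, and the lymphotoxin genes Ltb (3.88) and Lta (2.66) led. Of 4 measured NK and ILC1 markers, 3 had one of -1 or lower, and Nkg7, a gene of cytotoxic granules (-7.47), was held by 20 WT and 0 iR9 cells. Of 10 ILC progenitor markers, 2 had one of 1 or more and 6 had one of -1 or lower, with a median of -2.99. The part of these in the values of the 4 genes was not tested. Of 10 erythroid markers listed, 4 passed the filter and all 4 had a difference of 1 or more. The summed level of the list, of which 9 genes have a row, ran from 1.43 to 14700 TPM in iR9 cells, with a median of 775, and from 0 to 4000 in WT cells, with a median of 1.03. The erythroid genes Klf1 and Alas2 were listed at 0 in all iR9 cells. In the 4 iR9 cells with every erythroid marker below TPM 10, Upp1 was held by 2, Rgcc by 3, Serinc2 by 2 and Cd82 by 4. The holders of Upp1 and Serinc2 were cells 14 and 17 of suffix 1. Cells 24 and 27, of suffix 2 and 3, had Upp1 at 7.27 and 7.32 TPM and Serinc2 at 2.42 and 2.80. Against the 21 WT cells with every erythroid marker below TPM 10, the difference was 5.76 for Upp1, 6.47 for Rgcc, 5.05 for Serinc2 and 6.65 for Cd82. The 5 cells that held 3 or more markers of the myeloid or the mast cell list do not include WT cell 17. Leaving those 5 out gave a difference of 6.56, 5.49, 5.27 and 3.78 in the same order. In the range of 1514 to 3238 genes per cell that both groups share, with 16 WT and 19 iR9 cells, it was 5.99, 5.29, 4.74 and 4.58 in the same order. Over the suffix that both groups share, suffix 1, the differences were those given above for its 3 iR9 cells. Cell source and recipient cannot be told apart from the group in this design.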

How the data were processed

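The RNA of single sorted cells was turned into cDNA with the Discover-sc WTA kit and made into libraries with the TruePrep kit, per the labels' protocols. The authors deposited 1 table of TPM values by gene symbol. The submitters' processing notes name the build mm10 and, without their roles, StringTie 1.3.4, HISAT2 2.1.0, bcl2fastq 2.16.0.10 and SAMtools 0.1.19. TPM keeps no read depth, so no count test was used. Of 23420 rows, 27 whose symbol had turned into a date were left out, and their share of a library was at most 0.540%.

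Values were computed with pandas 2.3.3, SciPy 1.17.1 and NumPy 2.4.6 in Python 3.11.15 and drawn with matplotlib 3.10.9. The functions were tested on simulated data. Same-number iR9 libraries of suffix 2 and 3 were averaged when each was the best match of the other. Clopper-Pearson 95% intervals (exact) go with shares of cells, and a count of 0 is given a limit of 3 cells. Loci are from GENCODE M21 on GRCm38, and upstream windows are from RefSeq. No cell was removed, and doublets were not sought, since each library is from 1 sorted cell.

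The 4 genes, the lists and the splits were chosen with earlier results of these data known. Beside the 4 genes and Cxcr6, the genes named were the 12 largest differences of the rule and the next 3, up to 4 with the largest absolute difference in each pathway list, the Serinc family, up to 3 defining genes in each marker list, and the 3 likest genes of each member. The values of 1 marker list member are not reported here. Genes that a sentence sets beside these were added after their values were seen. Alternatives covered library counting, suffix, genes per cell, thresholds, pseudocounts, scaling, summaries and single cells left out.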

Additional observations from a re-analysis of the deposited data

How the results depend on the processing

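In 13 alternatives each, single cells left out aside, the difference between iR9 and WT stayed above 0 for all 4 genes (52 of 52). The choice of the genes required a positive difference for each suffix, so that sign was fixed in advance in the suffix alternatives. The other alternatives draw largely on the values behind the choice, so the count of 52 is no independent support. The difference ranged from 4.08 to 9.14 for Upp1, 3.68 to 9.85 for Rgcc, 3.14 to 7.22 for Serinc2 and 1.50 to 6.65 for Cd82. The difference of medians gave the 9.85 of Rgcc, whose WT median is 0. A threshold of TPM 1 in place of 10 raised the share of iR9 cells to 100% for Upp1 and 89.5% for Serinc2, and the share of WT cells with Cd82 to 100%. Without cells with an erythroid marker, 0% of WT cells held Serinc2. In the split of WT cells by Cxcr6, the Rgcc difference was -0.12 with a pseudocount of 0.1, and the Cd82 difference was 0.059 at a Cxcr6 threshold of TPM 1, which leaves 2 cells in the lower set. With each WT cell left out in turn it ran from -1.01 to 0.41 for Rgcc and from -0.013 to 1.08 for Serinc2. Chosen after seeing the data were the percentile rank within a cell, the WT cells with at least 2000 genes, leaving out cells with erythroid markers, and splits of iR9 cells without suffix 1. No paired analysis was possible because the numbers in the titles name cells and no animal. The unknown depth limits every value under TPM 10, and 1 sample per group allows no error between samples.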
